A study of Mus musculus with 14 samples.

Results

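Antimicrobial lectins of the Reg family and serum amyloid A proteins are secreted by the gut epithelium and form part of its defense at the mucosal surface. Their mRNA was examined in the ileum of mice that lacked the nuclear receptor corepressor NCoR1 in intestinal epithelial cells. The genes were chosen by name as Reg1, Reg3a, Reg3b, Reg3g, Reg4, Saa1, Saa2, Saa3, Retnlb and Nos2, which makes 10 of the 54532 genes in the table, and every one of them had a row. After the filter on low counts 7 could be tested, while Saa2, Saa3 and Retnlb stayed under it. The comparison asked whether the loss of NCoR1 was accompanied by another level of these genes, and how the genes varied together from mouse to mouse.

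Both groups were male mice with floxed NCoR1 alleles that were fed a high-fat diet with 60% of its energy as fat for 15 weeks. The 7 mice named WT were NCoR1 flox/flox without Cre, and the 7 IKO mice carried Cre under the villin promoter in addition, so the deletion was directed to epithelial cells and not to immune, stromal or muscle cells. The study's methods give 7 to 8 weeks as the age at which mice were used, and a legend for the phenotyped cohort gives 9 weeks. RNA came from ileum mucosa, 1 library per mouse, and litter, cage and day of collection are not given in the sources used here. Libraries held 14749669 to 18744592 counts on genes in WT mice and 15822384 to 21557468 in IKO mice. Ncor1 ranged from 106 to 195 CPM (counts per 1000000 counts, with library sizes scaled by TMM factors) in WT mice and from 31.7 to 64.0 in IKO mice, with no overlap. The share of mitochondrial genes was 50.3% for IKO 4, 23.9% for WT 3, 10.3% for WT 2 and 3.49% to 6.10% in the others. The summed level of 6 smooth muscle markers was 10855 CPM in WT 4 and at most 796 CPM elsewhere. Markers of absorptive enterocytes were abundant in every library, with a summed level of 21544 CPM or more.

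The Reg3 proteins are small C-type lectins that enterocytes and Paneth cells release into the lumen, where Reg3g binds peptidoglycan of Gram-positive bacteria. Microbial signals through MyD88, and interleukin-22 through STAT3, are known inducers of Reg3b and Reg3g. Serum amyloid A proteins are acute-phase apolipoproteins that bind retinol, and the epithelium of the ileum makes them when certain bacteria attach to it. Retnlb encodes the goblet cell protein RELMβ, and Nos2 encodes the inducible nitric oxide synthase.

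Reg3b, Reg3a, Reg1 and Reg3g form a group of neighbours on mouse chromosome 6 in the mm10 build, where Reg3b runs from 78370657 to 78373466 and Reg3g, on the opposite strand, from 78466269 to 78468872. Saa3, Saa1 and Saa2 lie together on chromosome 7, with Saa1 from 46740497 to 46742980 on the minus strand and Saa2 from 46751790 to 46754313 on the plus strand. Nos2 is on chromosome 11 from 78920787 to 78960254, Reg4 on chromosome 3 from 98222156 to 98236748, and Retnlb on chromosome 16 from 48816856 to 48818892. RefSeq promoters (GRCm38.p6) matched 8 of the 10 genes, all but Nos2 and Retnlb. Their starts are those of RefSeq, and for Reg1, Reg3b and Saa3 they lie inside the span of the counted gene. The 250 bases before each start were searched on both strands for the STAT motif TTCNNNGAA, the C/EBP motif TTGCNNAA, an NF-kB motif and the nuclear receptor motif AGGTCA. Of all 32851 promoters, 7.02% held the first, 9.56% the second, 0.980% the third and 14.02% the last in that window.

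Reg3b and Reg3g are shown because they moved together across mice and yet differed in their ratio between genotypes, as described further on. The stretch runs from 178 to 25 bases before the start, which leaves out annotated exons, and capitals mark a STAT motif. The Reg3b stretch is chr6:78370707-78370860 on the plus strand and the Reg3g stretch chr6:78468899-78469052 on the minus strand. The Reg3b stretch lies before the RefSeq start but inside the gene span given above, which begins at 78370657.
Reg3b: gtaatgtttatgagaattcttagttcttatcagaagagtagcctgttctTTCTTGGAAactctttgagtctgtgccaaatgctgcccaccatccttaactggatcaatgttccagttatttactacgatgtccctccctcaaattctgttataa
Reg3g: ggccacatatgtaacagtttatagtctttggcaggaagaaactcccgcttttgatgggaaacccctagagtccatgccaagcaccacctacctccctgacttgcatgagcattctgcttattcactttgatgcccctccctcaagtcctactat
A global alignment of the 2 stretches had 62.3% identical positions. The STAT motif of Reg3b lay 129 to 121 bases before the start, and the Reg3g window held none of the 4 motifs in the letters searched. Other spellings of these motifs were not searched.

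Saa1 and Saa2 are shown because their upstream sequences were nearly the same, whereas their counts were far apart. The stretch runs from 250 to 44 bases before the start, at chr7:46743024-46743230 on the minus strand for Saa1 and chr7:46751583-46751789 on the plus strand for Saa2. Capitals mark the C/EBP motif, and after it the nuclear receptor motif read on the other strand.
Saa1: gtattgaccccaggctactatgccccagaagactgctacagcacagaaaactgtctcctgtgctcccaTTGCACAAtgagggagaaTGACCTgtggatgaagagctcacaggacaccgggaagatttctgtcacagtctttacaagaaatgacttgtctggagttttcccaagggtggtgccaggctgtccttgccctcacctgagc
Saa2: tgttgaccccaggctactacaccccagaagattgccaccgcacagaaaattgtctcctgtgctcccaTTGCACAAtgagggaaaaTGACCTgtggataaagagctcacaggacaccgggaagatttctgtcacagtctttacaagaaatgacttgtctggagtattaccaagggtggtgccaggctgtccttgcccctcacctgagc
Of the aligned positions 93.8% were identical. Saa3 and Reg3a each held 1 C/EBP motif, and no motif was found before Reg1 or Reg4. A match is a stretch of letters and was not tested as a binding site.

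Among the secreted lectins, Reg3b was the most abundant, followed by Reg3g and, far lower, Reg3a. On a scale per length, which divides CPM by the length of the coding transcript in kilobases (CPM per kb), the median level in WT mice was 2659 for Reg3b, 1049 for Reg3g and 109 for Reg3a. In IKO mice these medians were 2594, 2164 and 111. Nos2 followed with 20.7 in WT and 61.5 in IKO mice, then Reg4 with 13.4 and 10.02, Saa1 with 5.07 and 13.7, and Reg1 with 1.605 and 1.487. The ranges of neighbours in this order overlapped in WT mice except for Reg3g and Reg3a, where the lowest Reg3g level (256) was above the highest Reg3a level (179), and for Reg3a and Nos2, where the lowest Reg3a level (43.7) was above the highest Nos2 level (34.9). In IKO mice Reg3g and Reg3a did not overlap either (524 against 157), the order of Saa1 and Reg4 was turned, and the highest Reg1 level (2.73) was below the lowest of Reg4 (4.601) and of Saa1 (6.53). Together, Reg3b and Reg3g took between 0.0763% and 0.849% of all counts in WT mice and between 0.0595% and 0.611% in IKO mice. No 100-base stretch of these coding transcripts was shared between any pair of the 10 genes, although the Reg3b and Reg3g transcripts had 68.6% identical positions when aligned.

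**Figure D1:**
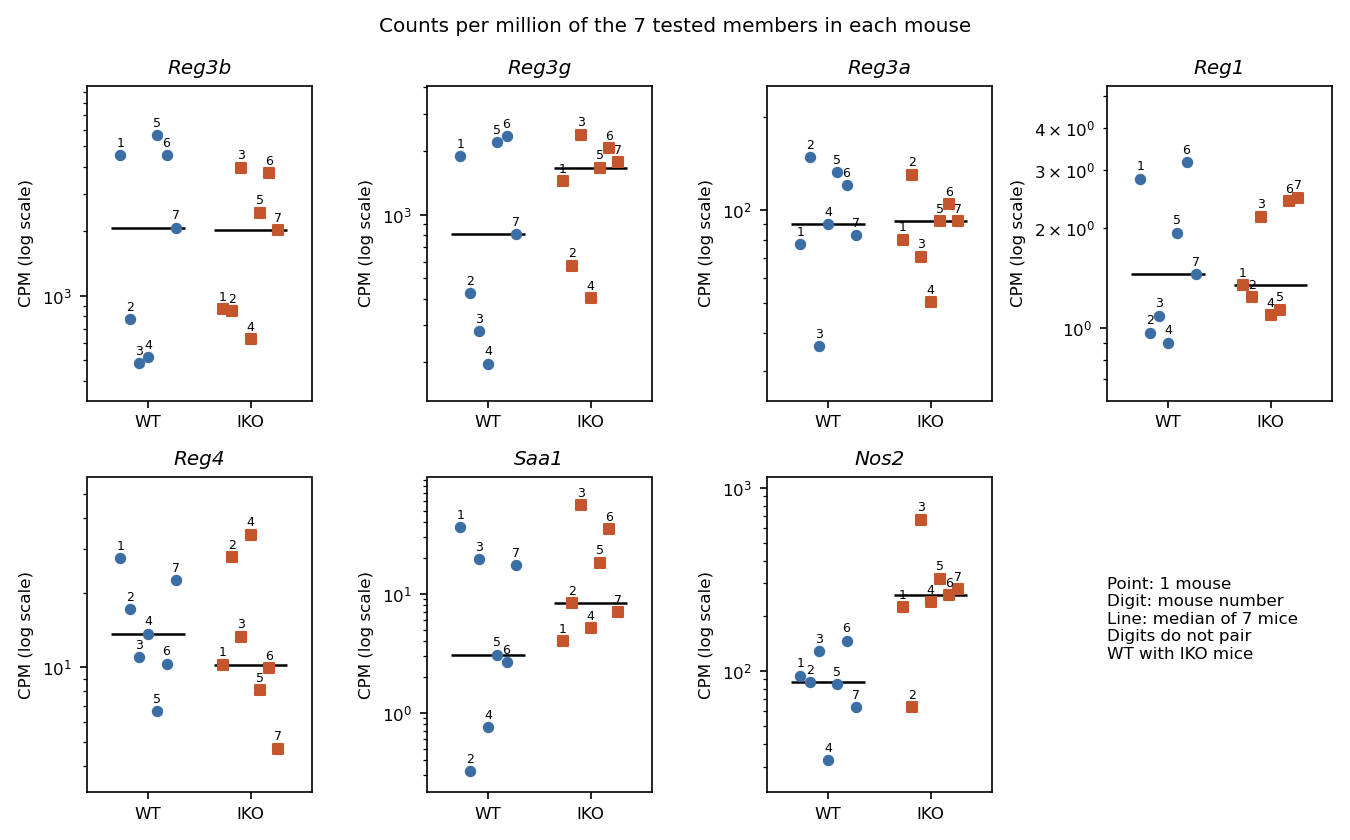
Level of each of the 7 tested genes in each mouse, as CPM on a log axis. Circles are WT mice, squares are IKO mice, digits are mouse numbers and the black line is the median of 7 mice. Nos2 was above every WT mouse in 6 of 7 IKO mice, and the other 6 genes overlapped between genotypes.

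Of the 7 genes tested, Nos2 passed an adjusted p of 0.05 with a higher level in IKO mice, and none passed with a lower level. Of these 7 genes Nos2 was also the only one with an unadjusted p under 0.05 by edgeR and the only one that DESeq2 called. Over all 13846 genes tested, 8.67% passed, 4.38% as higher and 4.28% as lower in IKO mice. The test was the quasi-likelihood test of edgeR, and p-values were adjusted by Benjamini-Hochberg over all genes tested. The median log2 fold change of all genes tested was -0.09. The comparison is of RNA from whole mucosa, in which a change in the number of cells of a type cannot be told apart from a change in RNA per cell.

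Nos2 produces nitric oxide from arginine. Its level in WT mice had a minimum of 32.5 CPM, a median of 86.7 and a maximum of 146. In IKO mice the minimum was 63.1 CPM, the median 258 and the maximum 669.5. IKO 3 was the highest of all mice, and IKO 2 was the only IKO mouse within the range of the WT mice. The log2 fold change was 1.69 with a standard error of 0.41, which is a 3.22-fold higher level with a 95% interval of 1.77 to 5.86 (adjusted p = 0.0222 by edgeR). The exact two-sided permutation test over mice gave p = 0.00641, and the smallest p it can give with 7 against 7 mice is 0.000583. Without IKO 3 the log2 fold change was 1.33 (adjusted p = 0.0393), and without IKO 2 it was 1.87 (adjusted p = 0.00867). The call held under 21 of 25 alternatives. Of the other 4, 3 were the fits without IKO 4, WT 3 and WT 4 together (1.67, adjusted p = 0.0616), without the 3 libraries with the largest mitochondrial shares (1.83, adjusted p = 0.0526) and with limma on FPKM when no filter was used (1.54, adjusted p = 0.0789). Of 8 macrophage markers, all were tested and none passed by edgeR (1 at an unadjusted p under 0.05) or DESeq2, and their summed level was 61.1 to 300.5 CPM in WT and 35.8 to 116 in IKO mice. None of 6 neutrophil markers passed the filter on low counts, and Mpo was at 0 in every library.

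Reg3b, which acts against Gram-negative bacteria, varied more within genotypes than it differed between them. It had a minimum of 483 CPM, a median of 2082 and a maximum of 5644 in WT mice. In IKO mice the minimum was 626 CPM, the median 2031 and the maximum 3985. The highest WT mouse was 11.7 times the lowest, and the highest IKO mouse 6.37 times the lowest. The log2 fold change was -0.35 with a standard error of 0.61, and the 95% interval of the fold was 0.321 to 1.91 (adjusted p = 0.722 by edgeR). Single mice moved this value by more than 1.5 times, to -0.05 without WT 5 and to -0.61 without IKO 3, and limma on FPKM, the deposited length-scaled level, gave -0.03.

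Reg3g had a minimum of 197 CPM, a median of 809 and a maximum of 2347 in WT mice. In IKO mice the minimum was 404 CPM, the median 1669 and the maximum 2389. Both genotypes had mice at high and at low levels, and 5 of 7 IKO mice were above the WT median. The log2 fold change was 0.34 with a standard error of 0.56, and the 95% interval of the fold was 0.558 to 2.87 (adjusted p = 0.709 by edgeR). It was 0.15 without WT 4, 0.61 without WT 6 and 0.71 with limma on FPKM, moves of more than 1.5 times. The 4 libraries with the least Reg3g were WT 4, WT 3, IKO 4 and WT 2. They included the 3 with the largest mitochondrial shares, and WT 4 was the library high in smooth muscle markers. The part of RNA quality and of tissue composition in the spread of Reg3g was not tested. Without IKO 4, WT 3 and WT 4 the log2 fold change of Reg3g was 0.11 (adjusted p = 0.9003) and that of Reg3b -0.60 (adjusted p = 0.498).

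Reg3a and Reg1 belong to the same chromosomal group and were steadier. Reg3a had a minimum of 36.1 CPM, a median of 89.7 and a maximum of 148 in WT mice, against 50.3, 91.9 and 129.8 in IKO mice. WT 3 was the lowest mouse in WT and IKO 4 the lowest in IKO. The fold for Reg3a was 0.902 with a 95% interval of 0.607 to 1.34 (adjusted p = 0.739 by edgeR), and its log2 fold change ran from -0.29 without WT 3 to -0.02 without WT 2. Reg1, mainly known from the pancreas, was between 0.902 and 3.15 CPM in WT mice and between 1.09 and 2.47 in IKO mice, or 10 to 69 counts per library. Its fold was 0.962 with a 95% interval of 0.572 to 1.62 (adjusted p = 0.931 by edgeR). None of 7 pancreatic markers passed the filter on low counts, with a summed level of 14.4 CPM in IKO 4 and at most 1.81 CPM elsewhere.

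Reg4 is expressed by secretory and enteroendocrine cells of the gut. It ranged from 6.65 to 27.5 CPM in WT mice around a median of 13.7, and from 4.70 to 34.2 in IKO mice around a median of 10.2. The 2 highest mice, IKO 4 and IKO 2, and the lowest mouse, IKO 7, were all IKO. The fold was 0.992 with a 95% interval of 0.538 to 1.83 (adjusted p = 0.989 by edgeR). None of 8 goblet and none of 8 enteroendocrine markers passed with edgeR (1 of each list at an unadjusted p under 0.05), and DESeq2 called 1 of each.

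Saa1 varied the most of the 7 genes tested. WT mice had a minimum of 0.322 CPM in WT 2, a median of 3.09 and a maximum of 36.0 in WT 1, a range of 112-fold. IKO mice had a minimum of 3.98 CPM, a median of 8.37 and a maximum of 55.7 in IKO 3, a range of 14.01-fold. All 7 IKO mice were above the WT median, and 3 WT mice (WT 1, WT 3 and WT 7) were within the range of the IKO mice. The log2 fold change was 0.74 with a standard error of 0.85, and the 95% interval of the fold was 0.476 to 5.86 (adjusted p = 0.580 by edgeR). It was 0.17 without IKO 3 and 1.38 without WT 1, so single mice moved it by more than 1.5 times. The exact two-sided permutation test of log2 levels gave p = 0.199.

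The remaining serum amyloid genes and Retnlb had low counts. Saa3 had 82 counts in all WT and 71 in all IKO mice, with 0 to 25 per WT library and 7 to 17 per IKO library. Saa2 had 1 count in WT and 6 in IKO mice, against 1795 and 2339 for Saa1. Aligned coding transcripts of Saa1 and Saa2 had 87.3% identical positions and shared no 100-base stretch. Retnlb had 8 counts in WT mice, all in WT 3, and 10 in IKO mice, at most 5 in a library. A library with 0 counts allows up to 3 counts, which is 0.106 to 0.328 CPM by library, for counting error only. These 3 genes did not pass the filter on low counts, so a difference between genotypes was not tested for them. Of 4 colon markers, Hoxb13 was at 0 in every library, and the summed level of the list was highest in WT 3 (29.6 CPM).

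**Figure D2:**
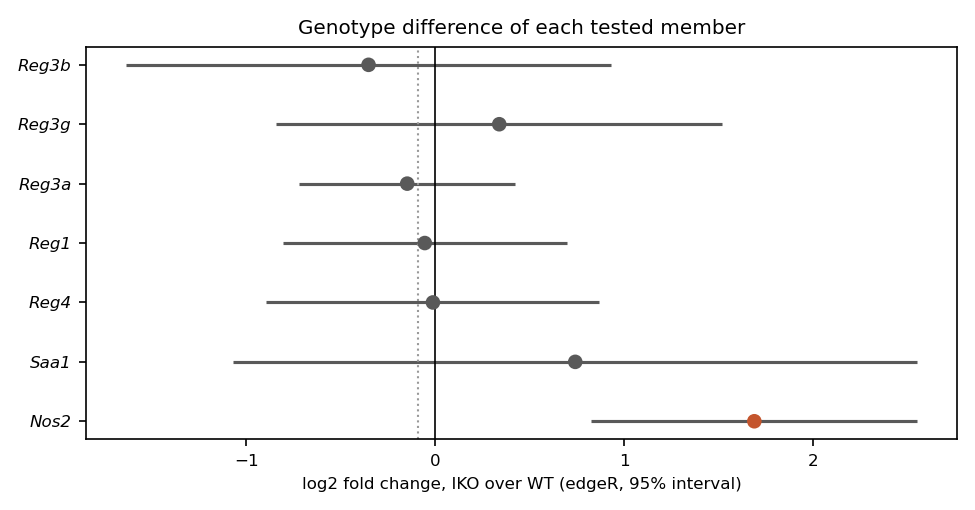
Log2 fold change of IKO over WT mice for the 7 tested genes, with 95% intervals from edgeR. The filled red point is Nos2, which passed the test at 1.69, the dotted line is the median of all genes tested at -0.09, and the intervals of the other 6 genes include 0.

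The spread within a genotype was set against that of all genes tested, as the pooled standard deviation of log2 CPM. The median over all genes was 0.52. Saa1 had 1.99, above 99.1% of the genes tested, Reg3b had 1.35 (above 95.3%) and Reg3g 1.26 (above 94.2%). Nos2 and Reg4 had 0.88 and 0.86, while Reg1 had 0.60 and Reg3a 0.57 (above 60.7% and 57.2%). Low counts add to the spread of weakly expressed genes, which applies to Saa1, Reg4 and Reg1 more than to Reg3b and Reg3g.

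Co-variation with Reg3g was examined within each genotype, over 7 mice, for the other 6 tested genes, which makes 12 relations. Reg3b followed Reg3g in both genotypes. Among WT mice Pearson's r was 0.99 (exact permutation p = 0.00139, adjusted p = 0.00833) and Spearman's rho 0.93 (exact permutation p = 0.00675, adjusted p = 0.0270). Among IKO mice r was 0.87 (exact permutation p = 0.000992, adjusted p = 0.00833) and rho 0.96 (exact permutation p = 0.00278, adjusted p = 0.0270). Without the 2 mice of each genotype farthest from its Reg3g median r was 0.996 and 0.910, and without IKO 4, WT 3 and WT 4 it was 0.98 and 0.81. WT 1, WT 5 and WT 6 were high in both genes and WT 2, WT 3 and WT 4 low in both, while IKO 1 was the third lowest IKO mouse in both, with 1441 CPM of Reg3g and 867 CPM of Reg3b.

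Reg1 followed Reg3g among WT mice, with r of 0.93 (exact permutation p = 0.00655, adjusted p = 0.0262) and rho of 0.93 (exact permutation p = 0.00675, adjusted p = 0.0270). Among IKO mice r was 0.71 (exact permutation p = 0.0796, adjusted p = 0.191) and rho 0.75 (exact permutation p = 0.0663, adjusted p = 0.133). The WT value was 0.90 and the IKO value 0.66 without the 2 farthest mice. Reg3a, between Reg3b and Reg1 on the chromosome, had r of 0.41 among WT and 0.23 among IKO mice (exact permutation p = 0.381 and 0.607, adjusted p = 0.508 and 0.663) and rho of 0.29 and 0.07 (exact permutation p = 0.556 and 0.906, adjusted p = 0.667 and 0.906). Whether any correlation differed between genotypes was not tested.

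The other genes did not pass in either genotype. For Saa1 r was 0.31 among WT and 0.62 among IKO mice (exact permutation p = 0.485 and 0.127, adjusted p = 0.582 and 0.218), and rho was 0.18 and 0.75 (exact permutation p = 0.713 and 0.0663, adjusted p = 0.778 and 0.133). For Nos2 r was 0.51 and 0.65 (exact permutation p = 0.244 and 0.116, adjusted p = 0.366 and 0.218), and rho was 0.46 and 0.75 (exact permutation p = 0.302 and 0.0663, adjusted p = 0.454 and 0.133). Reg4 had r of -0.11 among WT mice (exact permutation p = 0.807, adjusted p = 0.807) and -0.82 among IKO mice (exact permutation p = 0.0327, adjusted p = 0.0982). Its rho was -0.29 and -0.54 (exact permutation p = 0.556 and 0.236, adjusted p = 0.667 and 0.404). The negative value rested on IKO 4 and IKO 2, which were lowest in Reg3g and highest in Reg4, since r without them was 0.39.

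**Figure D3:**
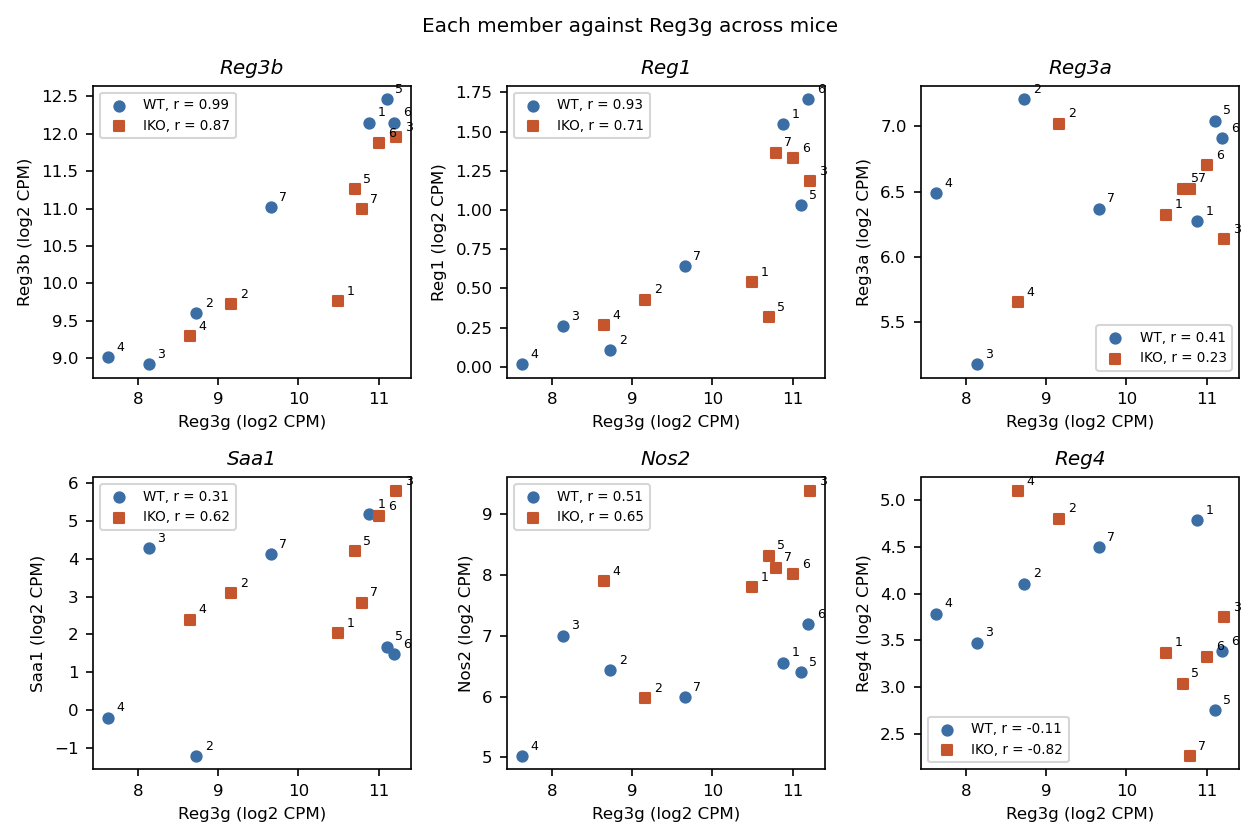
Log2 CPM of 6 genes (vertical axes) against log2 CPM of Reg3g (horizontal axes), 1 point per mouse with its number. Circles are WT and squares are IKO mice, and each legend gives Pearson's r within a genotype. Reg3b rises with Reg3g in both genotypes (0.99 and 0.87), and the negative r of Reg4 among IKO mice (-0.82) comes from 2 points at the upper left.

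The ratio of Reg3b to Reg3g counts does not depend on how libraries are scaled. It was computed after the values had been seen, as 1 of 6 ratios among Reg1, Reg3a, Reg3b and Reg3g. In WT mice it was 1.71 in the lowest mouse, 2.41 at the median and 2.62 in the highest. In IKO mice it was 0.601 in the lowest, 1.47 at the median and 1.82 in the highest. All 7 IKO mice were below the WT median and 6 were below the lowest WT mouse, with IKO 6 the one inside the WT range. The ratio was 0.599 times that of WT mice (log2 difference -0.74, exact two-sided permutation p = 0.00117, adjusted over the 6 ratios p = 0.00699). It was below WT with each mouse left out in turn (log2 difference -0.82 to -0.55) and without IKO 4, WT 3 and WT 4 together (-0.80, exact permutation p = 0.00866). The difference closest to 0 was that without IKO 1 (-0.55, exact permutation p = 0.00350). None of the other 5 ratios passed, with exact permutation p from 0.145 for Reg3g to Reg1 up to 0.977 for Reg3a to Reg3b (adjusted p from 0.434 to 0.977). On this scale of mean log2 levels Reg3b differed by -0.07 (exact permutation p = 0.918) and Reg3g by 0.67 (exact permutation p = 0.330). The edgeR estimates were -0.35 and 0.34. Neither gene alone passed either test, so which of the genes shifted cannot be told apart from these counts.

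**Figure D4:**
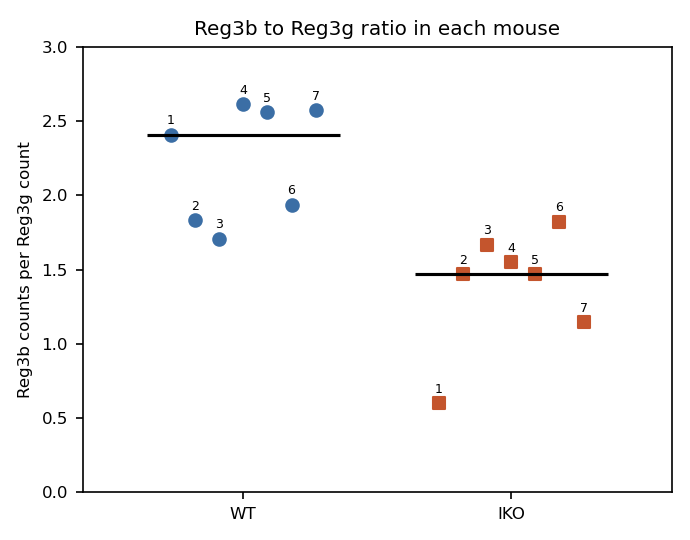
Reg3b counts per Reg3g count in each mouse (vertical axis from 0), with mouse numbers and the median of 7 mice as a line. The IKO squares lie between 0.601 and 1.82, and the WT circles between 1.71 and 2.62.

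The genes most like Reg3g were those with the highest Pearson r of log2 CPM after the mean of each genotype was removed, over 14 mice and 11269 genes with a mean log2 CPM of at least 1. The 8 closest outside the group were Mgat2 (0.95), Adgrg7 (0.95), Ostc (0.94), Myo6 (0.94), Ralgapa2 (0.94), Ms4a12 (0.94), Gcnt4 (0.93) and Naip2 (0.92). Reg3b itself had 0.95, and 36 genes had 0.9 or more. Mgat2 and Gcnt4 encode glycosyltransferases, Ostc a subunit of the oligosaccharyltransferase, Myo6 an unconventional myosin and Naip2 an inflammasome receptor of bacterial proteins. Ralgapa2 was the one of the 8 that differed between genotypes, with a log2 fold change of 1.12 (adjusted p = 0.00959 by edgeR).

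Saa1 had other neighbours. Its 8 closest genes by the same measure were Ceacam10 (0.94), Rnf152 (0.91), Eri1 (0.90), Ticrr (0.89), Ammecr1 (0.87), Nup210 (0.87), Ddx51 (0.86) and Pik3ap1 (0.86), none of which passed the genotype test. None of these 8 was among the 8 closest to Reg3g. These values are descriptions over mice that share library quality and depth.

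The genes that surround the group were taken from 8 lists, which held 106 different tested genes, of which 13 were higher and 6 were lower in IKO mice. In the list of IL-22, IL-17, IL-6 and STAT3 signaling, 16 of 23 genes were tested, 1 was higher, 1 was lower and 14 did not pass, with a median log2 fold change of -0.18. Stat3, the transcription factor downstream of these cytokines, rose by 0.56 on the log2 scale (adjusted p = 0.0411 by edgeR), from 90.6 to 158 CPM in WT to 148 to 209 CPM in IKO mice. Ahr, a receptor for dietary and microbial indoles, fell by 1.02 (adjusted p = 0.0349). The Stat3 call held under 11 and the Ahr call under 13 of 25 alternatives. The inducing cytokines were barely seen, since Il22 had 1 count and Il6 9 counts over all 14 libraries. Il22ra2, the soluble IL-22 binding protein, had the largest difference of those that did not pass (log2 fold change -2.81, adjusted p = 0.0676). Its medians were close, at 0.733 CPM in WT and 0.671 in IKO mice, while its maximum was 17.9 in WT and 1.66 in IKO mice. The IL-22 receptor subunit Il22ra1 had 1.03 (adjusted p = 0.269).

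In the list of microbe sensing and NF-kB, 33 of 38 genes were tested, with 4 higher, 2 lower and a median of -0.01. Irak4, the kinase that acts after MyD88, rose by 0.72 (adjusted p = 0.00839 by edgeR), and every IKO mouse was above every WT mouse. Both NF-kB inhibitors Nfkbia and Nfkbib rose, by 0.63 and 0.66 (adjusted p = 0.0194 and 0.0364), and so did the lipopolysaccharide co-receptor Cd14, by 0.77 (adjusted p = 0.0328). Il1r1, the receptor of interleukin-1, fell by 1.68 and Nod1, a sensor of peptidoglycan fragments, fell by 0.97 (adjusted p = 0.0410 and 0.0439). Il1r1 was weakly expressed, with medians of 1.02 CPM in WT and 0.351 in IKO mice. The Irak4 call held under all 25 alternatives, the Nfkbia call under 24, the Cd14 call under 17, the Nfkbib call under 15 and the Nod1 call under 8, and the Il1r1 call held under 8 of 22. Irak3 (-1.25), Tlr1 (-1.13) and Tnf (-0.99) had the largest differences of those that did not pass.

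The genes around Nos2 were in the list of interferon gamma and nitric oxide synthesis, where 12 of 16 genes were tested, 3 were higher and none lower, with a median of 0.10. Gch1, the first enzyme in the synthesis of the Nos2 cofactor tetrahydrobiopterin, rose from a median of 26.4 to 64.7 CPM (log2 fold change 1.25, adjusted p = 0.00549 by edgeR). Every IKO mouse was above every WT mouse, and the call held under all 25 alternatives. Irf1, a transcription factor of the interferon response, rose by 0.73 (adjusted p = 0.0236) and Ifngr2, a subunit of the interferon gamma receptor, by 0.75 (adjusted p = 0.0149). Each of these 2 calls held under 23 alternatives. Ass1 (-1.89), Slc7a2 (-0.92) and Arg2 (0.63) did not pass, with adjusted p from 0.161 to 0.280. Ass1 had medians of 2.38 CPM in WT and 1.29 in IKO mice, with maxima of 35.6 and 4.01. Slc7a2 was weakly expressed, with medians of 0.942 CPM in WT and 0.464 in IKO mice.

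Among 28 epithelial defense genes that are often induced with the group, 19 were tested, 3 were higher and 2 lower, with a median of 0.11. The hydrogen peroxide producing oxidase Duox2 and its maturation factor Duoxa2 had the largest rise. Duoxa2 was 8.50 to 11.1 CPM in WT and 45.0 to 259 in IKO mice (log2 fold change 3.89, adjusted p = 7.6e-05 by edgeR), and Duox2 was 24.9 to 91.7 and 56.4 to 736 CPM (2.82, adjusted p = 0.00295). Ido1, which degrades tryptophan, rose by 1.28 (adjusted p = 0.0161). Fut2, a fucosyltransferase of the epithelial surface, fell by 1.13 (adjusted p = 0.0420) and the mucosal pentraxin Mptx1 by 1.77 (adjusted p = 0.0495). The Duox2 and Duoxa2 calls held under all 25 alternatives and the Ido1 call under 24, but Fut2 held under 6 of 22 and Mptx1 under 8 of 24. Lypd8 (0.52), Itln1 (0.39) and Ccl20 (-0.83) did not pass. For Itln1 and Ccl20 the medians went the other way from the log2 fold change. Ccl20 had medians of 0.387 CPM in WT and 1.30 in IKO mice, with maxima of 8.09 and 3.10. Itln1 had medians of 322 and 256 CPM, with maxima of 526 and 1266. Lcn2, a siderophore-binding protein, was under the filter with 65 counts in all.

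Serum amyloid A proteins carry retinol, so genes of retinoid handling were counted as well. Of 21 genes 16 were tested, 2 were higher and 1 lower, with a median of 0.11. Aldh1a1, which makes retinoic acid from retinal, was 162 to 431 CPM in WT and 683 to 1197 in IKO mice (log2 fold change 1.76, adjusted p = 0.000439 by edgeR). Isx, a homeobox repressor of carotenoid uptake, rose by 1.17 (adjusted p = 0.00114), and Lrat, which esterifies retinol, fell by 1.65 (adjusted p = 0.0135). For each of these 3 genes the genotypes did not overlap and the call held under all 25 alternatives. Rbp2 (1.24, adjusted p = 0.0713) and Aldh1a2 (-0.98) did not pass. The Aldh1a2 median was 1.02 CPM in WT and 1.29 in IKO mice, against its negative log2 fold change, with maxima of 11.9 and 2.84.

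The last 3 lists held no gene that passed with edgeR, although 4 of their genes had an unadjusted p under 0.05 and DESeq2 called Stat6 of the first list. Of type 2 cytokine genes, which are known inducers of Retnlb, 5 of 10 were tested with a median of 0.40, and Il33 had 0.91, Il13ra1 0.73 and Il17rb -1.11 (adjusted p from 0.145 to 0.242). Of 8 relatives of the group, Reg3d alone was tested (-0.59, adjusted p = 0.521), Reg2 had 8 counts in all and Saa4 was at 0. Of 6 receptors for these proteins 4 were tested with a median of -0.58, namely Extl3 (-0.64), Scarb1 (-1.07), Cd36 (0.96) and Lrp1, and adjusted p was 0.111 or more. Against the 8.67% of all genes that passed, these counts are given as a description and not as a test of any list.

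**Figure D5:**
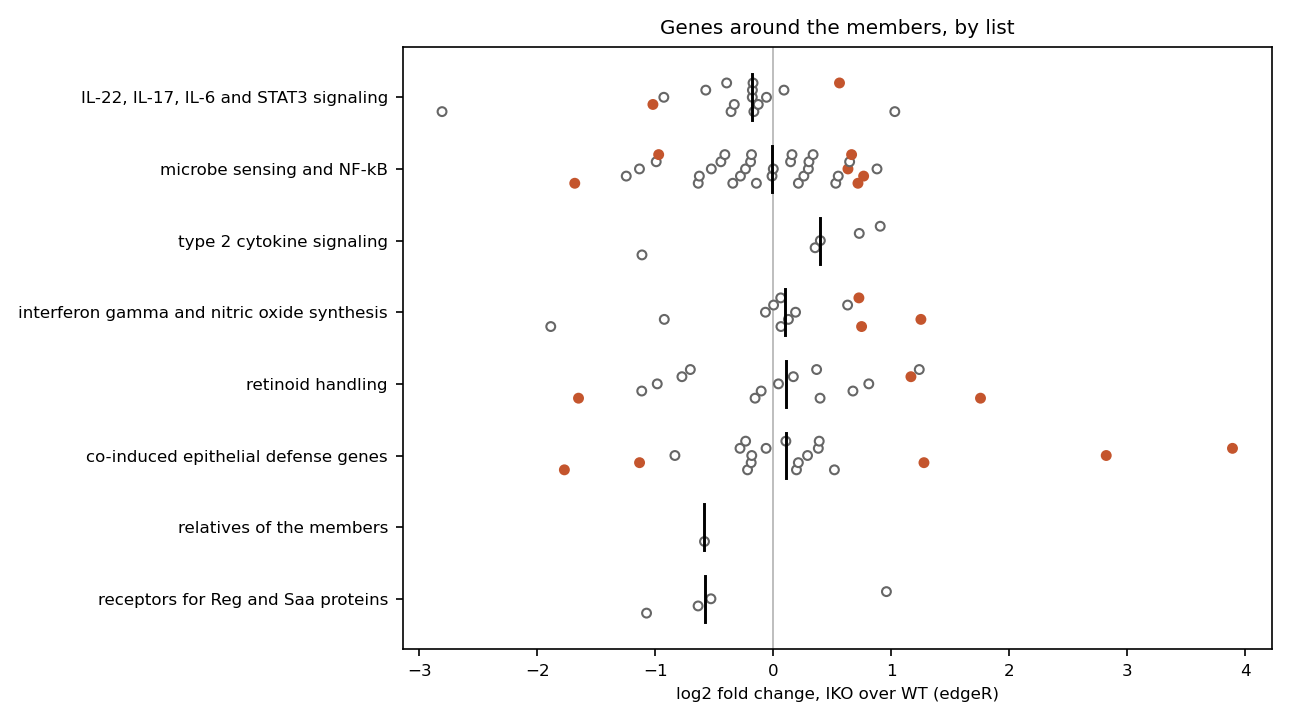
Log2 fold change of IKO over WT mice (horizontal axis) for each tested gene of the 8 lists. Filled points passed an adjusted p of 0.05 in edgeR, open points did not, and the black bar is the median of the list. The 2 points farthest to the right are Duoxa2 at 3.89 and Duox2 at 2.82.

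Cell type markers gave the following values beside these results. Of 10 Paneth cell markers all were tested and none passed with edgeR, also at an unadjusted p under 0.05, or with DESeq2, and their summed level was 719 to 6640 CPM in WT and 1503 to 7662 in IKO mice. Of 5 tuft cell markers 4 were tested, with a median log2 fold change of -0.68, and Avil fell by 1.17 (adjusted p = 0.0413 by edgeR). In this list 2 genes had an unadjusted p under 0.05 and DESeq2 called 2. Dclk1 (-0.94, adjusted p = 0.0680 by edgeR), Pou2f3 (-0.42) and Trpm5 (-0.32) did not pass with edgeR. Of 6 markers of the lower villus Gsta1 rose by 2.01 (adjusted p = 0.0132), and none of 8 markers of the villus tip passed (2 at an unadjusted p under 0.05, 1 with DESeq2). Of 5 genes of the proximal small intestine Adh6a and Fabp1 rose by 2.11 and 2.17 (adjusted p = 0.0193 and 0.0277). Gata4 (-0.0003) and Onecut2 (0.21) did not pass (adjusted p = 0.9995 and 0.808 by edgeR). Cybrd1 was under the filter, with medians of 1.29 CPM in WT and 0.236 in IKO mice. The summed level of this list was 197 to 2080 CPM in WT and 1755 to 8989 in IKO mice. Fabp1 alone had 148 to 1677 CPM in WT and 1285 to 7949 in IKO mice. None of 8 markers of T and innate lymphoid cells passed (3 at an unadjusted p under 0.05, 3 with DESeq2), with a median log2 fold change of -0.37. The 3 under 0.05 were Cd4 (-1.24), Il7r (-1.36) and Gzma (0.997). None of 6 markers of B and plasma cells passed (2 and 0), with a median of -1.10, while hepatocyte markers summed to at most 6.78 CPM. Of 6 stroma markers 5 were tested with a median log2 fold change of -2.003, and none passed with edgeR, although 4 had an unadjusted p under 0.05 and DESeq2 called 1. Their summed level was 6.28 to 354 CPM in WT and 8.32 to 44.7 in IKO mice, and apart from WT 4 it was at most 62.9 CPM. None of 6 smooth muscle markers passed (0 at an unadjusted p under 0.05, 0 with DESeq2), with a median of -3.10, and none of 10 markers of absorptive enterocytes (1 and 0), with a median of 0.26. Of 6 adipocyte markers 2 were tested and none passed (1 and 0), with sums of 22.01 to 171 CPM in WT and 82.9 to 177 in IKO mice. The part of cell composition or position along the intestine in the values above was not tested.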

How the data were processed

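The submitters' notes and the study's methods state that reads from mouse ileum mucosa (NEBNext Ultra kit, 150-bp paired ends, NovaSeq) were aligned to mm10 with HISAT2 2.0.5 and counted with featureCounts 1.5.0-p3. Whether strand was used and how reads with several matches were treated are not given in the sources used here. The deposited table holds whole counts per gene without normalization, and a second deposited table gives FPKM, found to be counts over gene length, scaled with DESeq2 size factors. Genotypes were taken from the sample titles, and the columns named KO were read as IKO.

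Counts of 14 samples were filtered with filterByExpr, scaled with TMM and compared with edgeR 4.0.16 in R 4.3.3 (glmQLFit and glmQLFTest, genotype as the only term, 13846 genes tested, threshold 0.05). Log2 levels add a prior count of 2. Exact permutation tests covered all 3432 divisions of the mice into 7 and 7, or all orders of 7 mice. P-values of the genotype tests set the difference between genotypes against the spread between these mice. Litter, cage and day of collection, which are not given, could not be taken into account. The method was tested on simulated counts. The genes, the lists and the tests were chosen with earlier results of these data known. Named in the text are the 10 genes and Ncor1, from each list up to 6 genes that passed and the 3 largest differences among the others, the 8 genes most like Reg3g and Saa1, and, chosen after their values were seen, a few genes of the lists at or near 0. Alternatives were DESeq2 1.42.0, RLE factors, TMM without mitochondrial genes, fits without a filter or with a minimum of 10 counts per sample, limma 3.58.1 on log2 FPKM (pseudocount 1 or 0.1; FPKM above 0.5 in 7 or more samples, or no such limit), a block for the sample number, and samples left out. No 2 libraries of a genotype agreed within sampling noise (smallest chi-square per gene 24.8 over 42 pairs). Protein sequences were not used here, and the result of 1 gene is not reported here.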

Additional observations from a re-analysis of the deposited data

Results flagged for a closer look

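The Reg3b to Reg3g count ratio of IKO 1 (0.601) stood apart from the other 6 IKO mice (1.15 to 1.82), with a gap of 0.582 of the range of that genotype on the log2 scale. IKO 1 had 867 CPM of Reg3b and 1441 CPM of Reg3g. It was the 1 sample set apart in this way among 16 sets of 7 mice examined, and chance sets apart a sample in about 1 in 20 such sets.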

How the results depend on the processing

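The direction of Reg3a, Reg3b, Reg3g, Saa1 and Nos2 was the same under every alternative run for each, while Saa1 had no value with at least 10 counts in every sample. Reg1 and Reg4 lay near 0 and changed sign. Reg1 was 0.019 with limma on FPKM at a pseudocount of 1 with or without the filter, 0.053 at 0.1 and 0.014 with the replicate block, and -0.17 to 0.15 with 1 mouse left out. Reg4 was 0.030 with DESeq2, 0.022 with RLE factors and -0.33 to 0.17 with 1 mouse left out. The number of genes of the group that passed was 1, and 0 with limma on FPKM without the filter, with the replicate block, without IKO 4, WT 3 and WT 4 together and, chosen after seeing the data, without the 3 libraries of largest mitochondrial share. Nos2, the gene concerned, had adjusted p of 0.0789, 0.0546, 0.0616 and 0.0526 there, with log2 fold changes of 1.54, 1.59, 1.67 and 1.83, and 0.00867 to 0.0498 with 1 mouse left out. Over all genes 1200 passed, against 2578 with DESeq2, 508 without the filter on low counts, 614 with limma on FPKM without a filter, 362 with the replicate block, 433 without IKO 4, WT 3 and WT 4 together, and 515 to 1371 with 1 mouse left out. Sample numbers did not pair the mice, as the deviations of same-numbered samples correlated at -0.31 to 0.23 and 1 of 7 correlated best with its own number, and the cause of the lower count with the block, where Ido1 had an adjusted p of 0.0619, was not tested. The correlation with Reg3g turned for Reg3a among WT mice without WT 3 and WT 4 (-0.21), for Reg3a among IKO mice without IKO 4 (-0.77) or without the 2 mice farthest from the median (-0.19), and without those 2 mice for Nos2 among WT mice (-0.41) and Reg4 among IKO mice (0.39). With 5 mice left, adjusted p of 0.1 and 0.15 for Reg3b says nothing of stability. Saa2, Saa3 and Retnlb stayed under the filter on low counts and have no test.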
